A study of Mus musculus with 8 samples.

Results

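Ribosomal protein and translation factor promoters held 66 of the 6425 open chromatin peaks measured in mouse kidney tubuloids. A peak was taken when its centre lay within 1000 bp of the transcription start listed for it and the gene symbol named a ribosomal protein, an eIF or eEF factor gene, or a tRNA synthetase. These peaks belonged to 65 gene symbols and made up 66 of the 4162 peaks within 1000 bp of a start. They comprised 12 small-subunit peaks, 19 large-subunit peaks, 20 initiation factor peaks, 4 elongation factor peaks and 11 tRNA synthetase peaks. The symbol Rpl36a had 2 peaks, on chromosomes 12 and X, and the chromosome 12 locus is Rpl36al in RefSeq. The rule used the symbol and the distance and no accessibility value. A promoter could enter only where a peak had been called, and the rule was set with earlier results of these data known.

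The chromatin came from primary renal tubular epithelial cells of wild-type mouse cortex, grown in Matrigel as tubuloids, which are small three-dimensional epithelial cultures. There were 4 libraries treated with myoglobin for 12 h and 4 libraries treated with vehicle over the same time, each made from 50000 cells by ATAC-seq, an assay that marks accessible DNA by where a transposase can cut it. Myoglobin is the haem protein of muscle and was added to injure the tubule cells. The series text gives 4 mice, but no label ties a library to a mouse, so p-values measure the spread between these libraries. The sources used here give no strain, age or myoglobin dose. In a mixed culture, fewer open cells and less opening per cell cannot be told apart in these values.

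The ribosome reads mRNA with a small subunit that scans and decodes and a large subunit that joins amino acids. Initiation factors bring the first tRNA and the mRNA cap to the small subunit, elongation factors move the ribosome along, and tRNA synthetases load each tRNA with its amino acid. Most of these genes are expressed in every cell type. Growth control through mTORC1 acts mainly on the translation of mRNAs that begin with a run of pyrimidines, the 5' TOP class. The eIF2 kinases answer stress by slowing initiation, while the factor ATF4 raises several tRNA synthetases through a C/EBP-ATF response element (CARE).

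The sequences that carry these regulatory features were read from RefSeq promoter windows of the GRCm38.p6 assembly (the coordinates of mm10), which run from 250 bases before to 50 after a gene's start. A window with its start within 1000 bp of the listed start was found for 53 of the 66 peaks, and 50 of these windows overlapped the peak. Where a gene had several starts, the window nearest the listed start was read. The windows of Eif5a, Rpl5 and Wars2 did not reach their peaks but stayed in the motif shares given below. For Eif5a RefSeq lists 6 starts, and the 1 that lies inside the peak was not the start of the window read. The first set shows the CARE in the synthetase promoters, the class to which every member match belonged. Capitals mark TTNCATCA, the reverse complement of the searched TGATGNAA. The stretches are Aars1 at chr8:111033710-111033870 (plus strand), Iars1 at chr13:49682090-49682156 (plus strand) and Tars1 at chr15:11399639-11399698 (minus strand).
Aars1: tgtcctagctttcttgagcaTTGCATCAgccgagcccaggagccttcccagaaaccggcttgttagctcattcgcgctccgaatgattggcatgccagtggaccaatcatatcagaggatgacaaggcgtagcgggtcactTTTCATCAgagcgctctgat
Iars1: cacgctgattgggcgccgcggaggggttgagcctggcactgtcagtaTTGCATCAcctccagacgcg
Tars1: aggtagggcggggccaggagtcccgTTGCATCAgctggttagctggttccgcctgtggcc

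The second set shows 5' TOP starts of ribosomal protein genes, from 10 bases before the RefSeq start. Capitals mark the pyrimidine run, counted from a C at or within 5 bases of the start and followed by at least 4 more C or T. They are Rps21 at chr2:180257369-180257398 (plus strand), Rps23 at chr13:90923112-90923141 (plus strand) and Rpl13a at chr7:45128726-45128755 (minus strand). The Rps21 stretch lies inside its peak, the Rpl13a stretch is cut by the edge of its peak, and the Rps23 stretch lies beyond its peak.
Rps21: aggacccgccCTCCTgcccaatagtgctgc
Rps23: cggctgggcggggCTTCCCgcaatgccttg
Rpl13a: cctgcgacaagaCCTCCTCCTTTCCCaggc

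The third set shows the ETS core CCGGAAG, a motif of GABP and related factors, in 2 of the ribosomal promoters with the most signal per kb, Rps21 at chr2:180257276-180257398 and Rpl37 at chr15:5116575-5116632, both on the plus strand. Capitals mark the core on the printed strand. Rpl27, with the most signal per kb of the large-subunit peaks, had no ETS core in its window. Rps29, with the most of the small-subunit peaks, had no window.
Rps21: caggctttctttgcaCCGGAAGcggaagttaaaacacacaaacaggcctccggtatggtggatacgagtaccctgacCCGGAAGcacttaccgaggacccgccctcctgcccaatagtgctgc
Rpl37: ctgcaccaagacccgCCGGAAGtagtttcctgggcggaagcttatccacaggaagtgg

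The accessibility of each peak is given as the deposited value, a read number scaled by library and rounded by the authors, so it compares libraries at one peak. Peaks are compared with each other only per kb of peak width. Differences are myoglobin minus vehicle on the log2(value + 1) scale, with the standard error (SE) from limma, and each p is two-sided and adjusted by Benjamini-Hochberg over all 6425 peaks. A peak was called at an adjusted p under 0.05. The log2 scale with 1 added understates the change of low peaks.

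No ribosomal protein or translation factor promoter was called higher or lower with myoglobin by limma. Across all peaks 13 were called higher (0.202%) and 3 lower (0.0467%), and 0 of 66 is read against those shares. At an unadjusted p under 0.05, 0 of the 66 peaks were higher and 2 were lower, among them Lars1. That is 3.03% of the set, beside 7.6% of all peaks in either direction, 3.67% higher and 3.92% lower. The 4 myoglobin and 4 vehicle values overlapped at every one of the 66 peaks. Across all peaks 3.04% had non-overlapping values, 1.45% higher with myoglobin and 1.59% lower. Of the 4096 other promoter peaks, 62 were higher without overlap and 58 lower. A set of 66 would hold few such peaks at those shares. The smallest adjusted p in the set was 0.575.

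The log2 differences of the 66 peaks ran from -0.88 to 0.65 with a median of -0.08, beside a median of -0.02 over all peaks and -0.01 over the 4096 other promoter peaks. There were 26 positive and 40 negative differences, so 60.6% were negative, beside 52.8% of all peaks and 51.3% of the other promoter peaks. The class medians were -0.09 for the small subunit, -0.08 for the large subunit, -0.08 for initiation factors, 0.06 for elongation factors and -0.08 for tRNA synthetases. At a single peak the 95% interval, not adjusted for the number of peaks, reached a median of 0.53 to either side of its difference. A call at an adjusted p under 0.05 needed a difference larger than that half-width, so smaller changes could go uncalled at this depth. No test was made on the class medians.

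**Figure D1:**
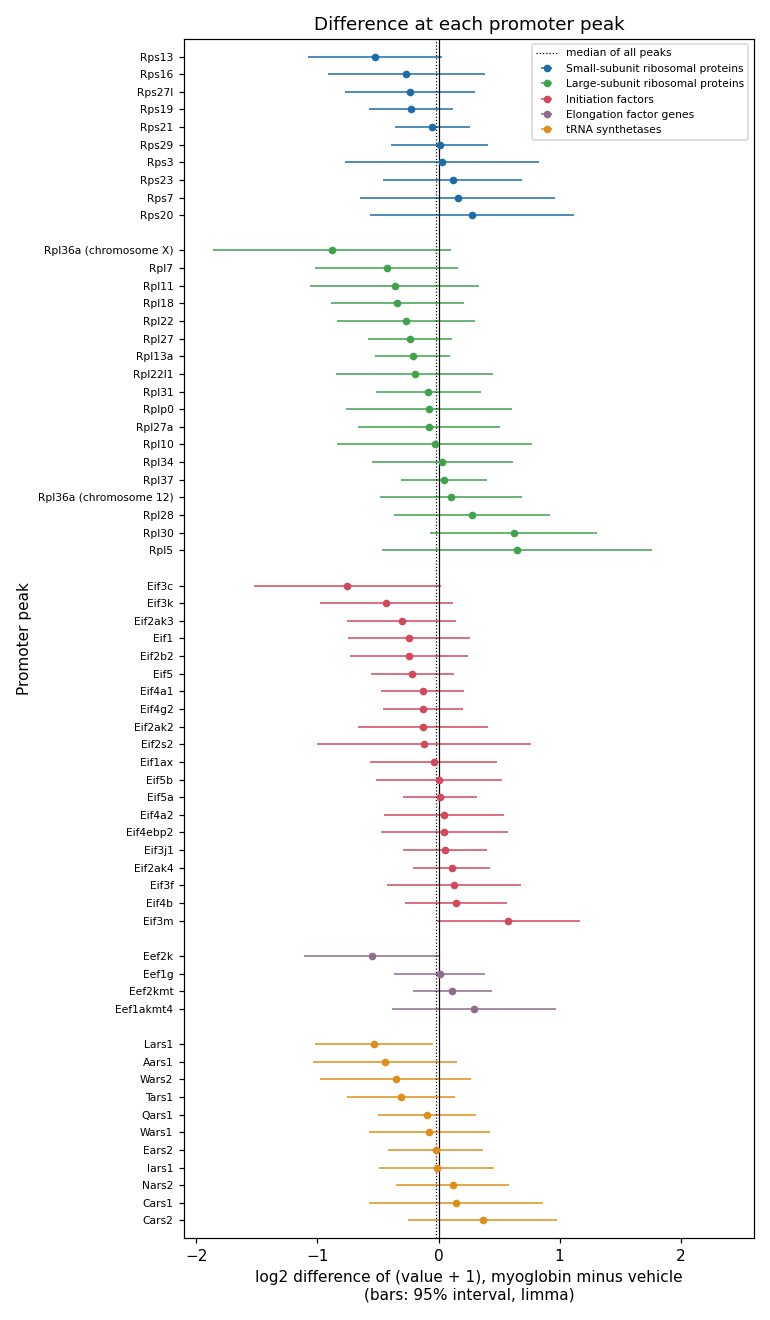
Each point is the log2 difference of (value + 1), myoglobin minus vehicle, at one of 63 of the 66 promoter peaks, with its 95% interval from limma as a bar and colours for the 5 classes; the dotted line is the median of all peaks. The points run from -0.88 (Rpl36a on chromosome X) to 0.65 (Rpl5), and of the bars drawn only that of Lars1 misses 0.

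Summed over the 66 peaks, the set took 1.077%, 1.023%, 1.013% and 1.050% of the library total in myoglobin replicates 1 to 4. It took 1.128%, 1.098%, 1.082% and 1.104% in vehicle replicates 1 to 4. The means were 1.041 ± 0.0287% with myoglobin and 1.103 ± 0.0192% with vehicle (SD, n = 4 each), and the groups did not overlap. The depth of the libraries was separated in the same way. The reads in peaks, estimated from the rounding steps of the values, were 123453, 82529, 67645 and 120260 in myoglobin replicates 1 to 4, against 166553, 200519, 130568 and 171209 in vehicle replicates 1 to 4. The part of depth in the share was not tested, and no test was made on the summed set.

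By class, the small-subunit share was 0.153% to 0.192% in myoglobin libraries, against 0.187% to 0.199% in vehicle libraries. The large-subunit share was 0.226% to 0.281%, against 0.267% to 0.281% with vehicle. Initiation factor peaks took 0.327% to 0.399% with myoglobin and 0.372% to 0.401% with vehicle. Elongation factor peaks took 0.0686% to 0.0888% and 0.0739% to 0.0844%, and synthetase peaks 0.151% to 0.172% and 0.153% to 0.195%, myoglobin before vehicle. Every class overlapped between the groups when taken alone.

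**Figure D2:**
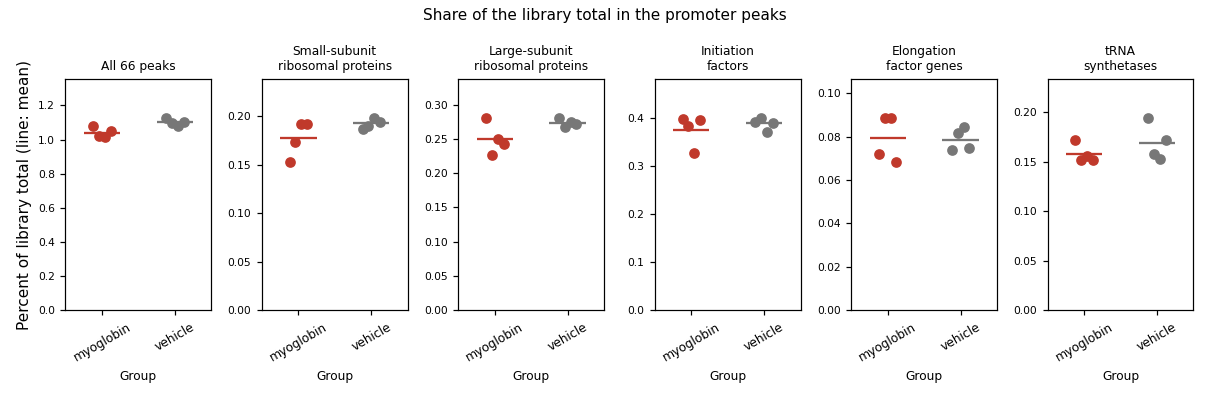
Each point is 1 library and gives the percent of its total value that falls in the promoter peaks, for all 66 peaks and for each class, with a line at the mean of the 4 libraries. For all 66 peaks the myoglobin libraries lie between 1.01% and 1.08% and the vehicle libraries between 1.08% and 1.13%, while every class overlaps.

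Among the small-subunit genes, 7 of 12 differences were negative, and the smallest p was at Rps13, a protein of the 40S subunit. Its peak (chr7:116334134-116334295, across the start) had values of 10, 12, 9 and 17 in myoglobin replicates 1 to 4, against 23, 16, 17 and 14 in vehicle replicates 1 to 4. The highest myoglobin library lay inside the vehicle range. The log2 difference was -0.52 ± 0.28 (SE), with an adjusted p of 0.672.

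Rps19, which is mutated in Diamond-Blackfan anaemia in humans, had the widest peak of the set, 590 bp across its start (chr7:24884046-24884635). Its values were 25, 35, 37 and 42 with myoglobin, against 43, 43, 36 and 39 with vehicle, and the difference was -0.23 ± 0.17 (adjusted p = 0.818). Only myoglobin replicate 1 stood well under the others, and without it the difference was -0.0812.

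The small-subunit promoters with the most signal per kb were those of Rps29 and Rps21, both encoding small proteins of the 40S subunit. Rps29 had 132 per kb with myoglobin and 130 with vehicle, from values of 33, 20, 43 and 29 against 26, 27, 44 and 26 (chr12:69159103-69159338). Rps21 had 119 per kb with myoglobin and 123 with vehicle, from values of 40, 50, 56 and 44 against 40, 51, 58 and 48 (chr2:180257077-180257475). The groups lay over each other at both, with differences of 0.01 ± 0.20 and -0.05 ± 0.15. Over all 8 libraries the lowest mean levels were at Rps23 (52.4 per kb with myoglobin, 45.5 with vehicle), which lies at the decoding centre, and Rps16 (55.3 and 60.3 per kb). Their differences were 0.12 ± 0.29 and -0.27 ± 0.33. That of Rps16 was -0.0603 without myoglobin replicate 1 or 3, and -0.59 without myoglobin replicate 4. The peaks of Rps3, Rps7, Rps20 and Rps27l had differences from -0.24 (Rps27l) to 0.27 (Rps20).

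Among the large-subunit genes, 13 of 19 differences were negative. Rpl30, a 60S protein that in yeast also binds its own transcript, had a peak centred 334 bp inside the gene (chr15:34443246-34443366). Its values were 10, 11, 13 and 11 with myoglobin, against 10, 7, 8 and 4 with vehicle. A single vehicle library reached the lowest myoglobin value, and the difference was 0.62 ± 0.35 (adjusted p = 0.692), or 0.40 without vehicle replicate 4. Rpl5, which carries 5S rRNA to the 60S subunit and binds Mdm2 under ribosomal stress, had the least signal of the set. Its values were 5, 3, 4 and 4 with myoglobin, against 1, 4, 1 and 4 with vehicle, and its difference was 0.65 ± 0.56 (adjusted p = 0.854), or 0.43 without vehicle replicate 1 or 3.

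The Rpl36a peak on chromosome X had values of 12, 6, 0 and 3 with myoglobin, against 9, 6, 9 and 5 with vehicle (chrX:134585512-134585636). The 0 in myoglobin replicate 3 was the only 0 among the 528 values of the set, and at that library's depth 3 reads, the limit that a count of 0 allows, would be a value of up to 5.59. Its difference of -0.88 ± 0.49 was the most negative of the set (adjusted p = 0.696), and it was -0.17 without myoglobin replicate 3 and -1.41 without myoglobin replicate 1. The peak named Rpl36a on chromosome 12 had 13, 15, 9 and 15 with myoglobin, against 14, 9, 14 and 11 with vehicle, a difference of 0.10 ± 0.30. Reads from near-identical copies of ribosomal protein genes can be assigned to the wrong copy, so such values are less certain.

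Rpl27 and Rpl37, both 60S proteins, had the most signal per kb of the large-subunit peaks. Rpl27 had 115 per kb with myoglobin and 134 with vehicle, and Rpl37 had 112 with myoglobin and 109 with vehicle. Their differences were -0.24 ± 0.18 and 0.04 ± 0.18, and that of Rpl27 was -0.13 without myoglobin replicate 2. Rpl13a, which also takes part in interferon-linked translational silencing, had values of 53, 49, 43 and 34 with myoglobin, against 46, 52, 62 and 47 with vehicle (chr7:45128741-45129198). The ranges overlapped, and the difference was -0.21 ± 0.16 (adjusted p = 0.800). It was -0.0918 without myoglobin replicate 4 and -0.13 without vehicle replicate 3. Rplp0, the base of the stalk that recruits elongation factors, had 6, 9, 11 and 10 with myoglobin, against 7, 9, 8 and 15 with vehicle, and a difference of -0.08 ± 0.34. The peaks of Rpl7, Rpl10, Rpl11, Rpl18, Rpl22, Rpl22l1, Rpl27a, Rpl28, Rpl31 and Rpl34 had differences from -0.43 (Rpl7) to 0.27 (Rpl28).

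**Figure D3:**
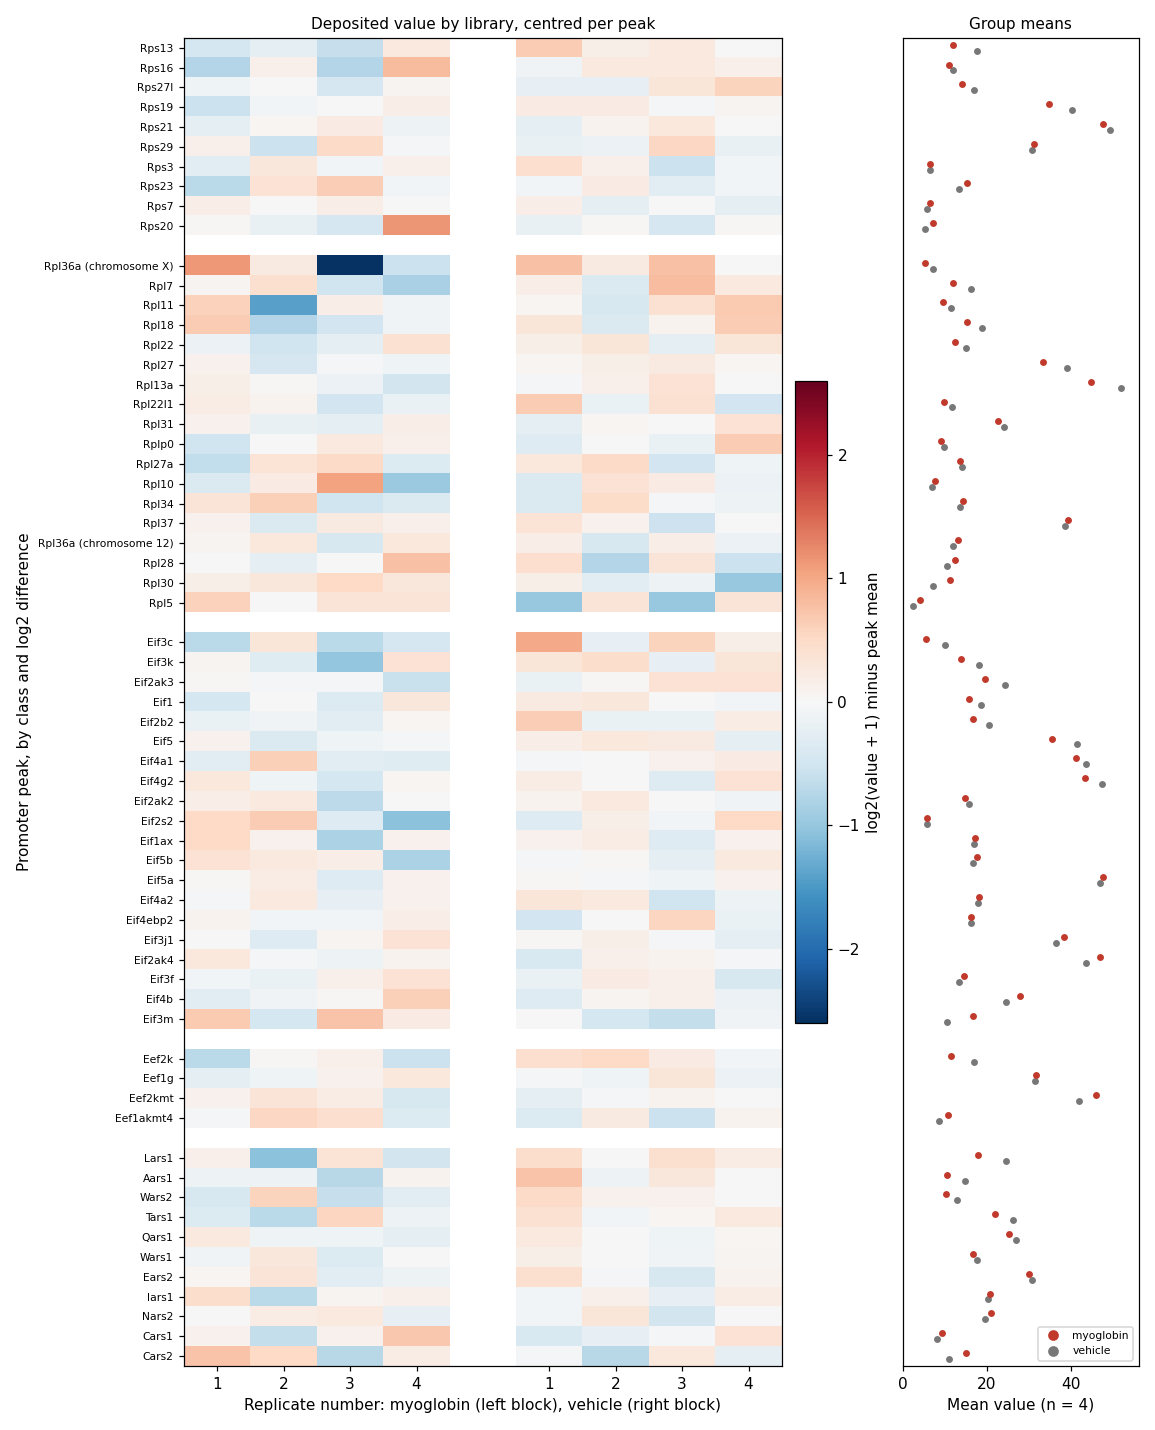
The left panel shows 63 of the 66 peaks as rows, by class and then by log2 difference, and each library as a column, with log2(value + 1) centred on the peak's mean as colour; the right panel gives the group means of the deposited value (n = 4 each), with myoglobin in red and vehicle in grey. Means run from 4 to 47.5 with myoglobin and from 2.5 to 51.8 with vehicle, and in no class do the 4 myoglobin columns share 1 colour.

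Initiation begins with eIF2, which carries the initiator tRNA, and with the kinases that phosphorylate it. Peaks were found at 3 of the 4 eIF2 kinases. Eif2ak3 encodes PERK, the kinase that senses unfolded protein in the endoplasmic reticulum. Its values were 22, 21, 21 and 14 with myoglobin, against 19, 22, 28 and 28 with vehicle (chr6:70844205-70844551). Myoglobin replicate 4 lay apart from the other 3, and the difference was -0.30 ± 0.23 (adjusted p = 0.807). Without that library it was -0.16.

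Eif2ak4 encodes GCN2, the sensor of uncharged tRNA and stalled ribosomes. It had the most signal per kb of the initiation factor peaks, 135 with myoglobin and 126 with vehicle. Its values were 54, 44, 41 and 48 with myoglobin, against 34, 49, 48 and 43 with vehicle (chr2:118388355-118388700), so the groups overlapped over most of their range. The difference was 0.11 ± 0.16, with a 95% interval of -0.21 to 0.42. Eif2ak2 encodes PKR, the kinase activated by double-stranded RNA, and had 17, 18, 9 and 15 with myoglobin, against 16, 18, 15 and 14 with vehicle. Its difference was -0.13 ± 0.27. The kinase regulated by haem, Eif2ak1, had no member peak and was not analysed here.

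Eif2s2, the beta subunit of eIF2, had values of 8, 9, 4 and 2 with myoglobin, against 4, 6, 5 and 8 with vehicle. Both means were 5.75, so the level was 42.0 per kb in each group, the lowest of the initiation factors. Eif2b2, a subunit of the exchange factor that recharges eIF2 with GTP, had 16, 17, 15 and 19 with myoglobin, against 29, 16, 16 and 21 with vehicle. Its difference was -0.24 ± 0.25. Vehicle replicate 1 lay well above the rest, and without it the difference was -0.0666.

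The eIF3 complex, the scaffold on the small subunit, had 5 peaks with differences in both directions, 3 positive and 2 negative. Eif3m had values of 21, 9, 22 and 15 with myoglobin, against 13, 9, 8 and 12 with vehicle (chr2:105017049-105017219). Its difference of 0.58 ± 0.30 had an adjusted p of 0.655 and an exact two-sided permutation p of 0.143, where 70 assignments allow no p below 0.0286. Eif3c had 4, 9, 4 and 5 with myoglobin, against 15, 6, 11 and 8 with vehicle (chr7:126566456-126566560). Its difference of -0.75 ± 0.39 had an adjusted p of 0.657 and an exact permutation p of 0.114. Both subunits belong to 1 complex, and at each the groups overlapped only through myoglobin replicate 2. Eif3k, a small peripheral subunit, had 16, 12, 7 and 20 with myoglobin, against 19, 21, 13 and 19 with vehicle, and a difference of -0.43 ± 0.28, which was -0.17 without myoglobin replicate 3.

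The factors of the mRNA cap complex had 5 peaks with differences from -0.13 to 0.14. Eif4a1, the RNA helicase that unwinds leader sequences, had values of 34, 64, 34 and 33 with myoglobin, against 40, 41, 45 and 48 with vehicle (chr11:69672341-69672681). A single library, myoglobin replicate 2, carried the myoglobin mean of 41.3 ± 15.2, beside 43.5 ± 3.70 with vehicle. The difference was -0.13 ± 0.17, and without that library it was -0.36 (adjusted p = 0.556). Eif4ebp2, a repressor of the cap-binding protein that mTORC1 inactivates, had 17, 15, 15 and 18 with myoglobin, against 11, 16, 24 and 14 with vehicle. Its means were both 16.3, and its difference on the log2 scale was 0.05 ± 0.26.

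Eif5, which triggers GTP hydrolysis on eIF2 at the start codon, had values of 41, 29, 35 and 37 with myoglobin, against 43, 46, 45 and 32 with vehicle. Its difference was -0.22 ± 0.17 (adjusted p = 0.833), with -0.13 without myoglobin replicate 2 and -0.33 without vehicle replicate 4. Eif5a, the factor with the amino acid hypusine that helps ribosomes through difficult stretches, had 48, 54, 37 and 51 with myoglobin, against 48, 45, 43 and 51 with vehicle (chr11:69921291-69921754). Its difference of 0.01 ± 0.15 had a 95% interval of -0.30 to 0.32. The other initiation factor peaks, of Eif1, Eif1ax, Eif3f, Eif3j1, Eif4a2, Eif4b, Eif4g2 and Eif5b, had differences from -0.24 (Eif1) to 0.14 (Eif4b). No member peak was found for Eif2s1, Eif2b1, Eif2b3, Eif2b4, Eif2b5, Eif4ebp1, Eif4e, Eif4g1 or Eif6.

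The elongation genes with a peak were mostly regulators. Eef2k encodes the kinase that halts elongation by phosphorylating eEF2. Its values were 8, 14, 15 and 9 with myoglobin, against 19, 20, 16 and 13 with vehicle (chr7:120842792-120842977). Of the 4 myoglobin libraries, 2 lay within the vehicle range and 2 below it. The means were 11.5 ± 3.51 and 17 ± 3.16 (SD, n = 4 each), and the difference was -0.55 ± 0.28, with an adjusted p of 0.653 and an exact permutation p of 0.114. With 1 library left out the difference ran from -0.69 to -0.41, the last without myoglobin replicate 1. The difference was -0.91 when the 2 shallowest libraries, myoglobin replicates 2 and 3, were left out (adjusted p = 0.286). Those 2 libraries held the values within the vehicle range, 14 and 15.

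Eef2kmt, a methyltransferase of eEF2, had the most signal per kb of the whole set over the 8 libraries, 146 with myoglobin and 133 with vehicle. Its values were 47, 55, 50 and 32 with myoglobin, against 36, 42, 46 and 43 with vehicle, and its difference was 0.11 ± 0.16. Eef1akmt4, a methyltransferase of eEF1A, had 9, 14, 13 and 7 with myoglobin, against 7, 11, 6 and 10 with vehicle, and a difference of 0.30 ± 0.34, which ran from 0.16 to 0.47 with 1 library left out. Eef1g, a subunit of the exchange complex of eEF1A, had 26, 29, 34 and 38 with myoglobin, against 30, 29, 39 and 28 with vehicle, and a difference of 0.01 ± 0.19. The groups overlapped at all 3. The core factors Eef1a1 and Eef2, and the ribosomal protein Rps6, had no member peak.

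Of the 11 tRNA synthetase peaks, 7 belonged to cytosolic enzymes, with a median difference of -0.10 and 6 negative. The 4 mitochondrial ones had a median of 0.05 with 2 negative. Lars1, the leucyl-tRNA synthetase that also senses leucine for mTORC1, had values of 22, 9, 26 and 14 with myoglobin, against 28, 20, 27 and 23 with vehicle. Of the 4 myoglobin libraries, 2 lay inside the vehicle range and 2 below it. Its difference was -0.53 ± 0.25, with an unadjusted p of 0.0324, an adjusted p of 0.606 and an exact permutation p of 0.200. Without myoglobin replicate 2 the difference was -0.27.

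Of the 3 synthetases with a CARE in the printed stretches, Aars1 and Tars1 had differences below 0, while that of Iars1 was close to 0. None of them passed the test. Lars1, Cars1 and Wars1 had no window and could not be read for a CARE. Aars1, which charges alanine, had 11, 11, 7 and 13 with myoglobin, against 21, 11, 15 and 12 with vehicle, and a difference of -0.44 ± 0.30 (adjusted p = 0.761). It was -0.27 without vehicle replicate 1 and -0.28 without myoglobin replicate 3. Tars1, which charges threonine, had 18, 14, 35 and 21 with myoglobin, against 31, 22, 24 and 28 with vehicle, and a difference of -0.31 ± 0.23 (adjusted p = 0.797). It was -0.13 without myoglobin replicate 2 and -0.55 without myoglobin replicate 3, the highest of the 8 libraries. Iars1, which charges isoleucine, had 28, 12, 21 and 22 with myoglobin, against 19, 22, 17 and 23 with vehicle, and a difference of -0.01 ± 0.24 (adjusted p = 0.996). With 1 library left out the Iars1 difference ran from -0.17 to 0.21. The groups overlapped at all 3. Wars1, which charges tryptophan, had the most signal per kb among the synthetases, 116 with myoglobin and 121 with vehicle, and a difference of -0.08 ± 0.25. The other synthetase peaks ran from -0.35 (Wars2) to 0.36 (Cars2).

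The level per kb of the set was close to that of other promoters. The median value per kb was 79.8 with myoglobin and 86.1 with vehicle over the 66 peaks, beside 79.9 with myoglobin and 78.5 with vehicle over the 4096 other promoter peaks. By class it was 63.9 and 69.1 for the small subunit, 78.3 and 80.5 for the large subunit, 83.6 and 88.9 for initiation factors, 103 and 98.9 for elongation factors, and 88.0 and 94.1 for synthetases, each with myoglobin before vehicle. The vehicle levels of single peaks ran from 18.9 per kb at Rpl5 to 134 per kb at Rpl27. Values between libraries of 1 group varied by a median coefficient of variation of 26.7% with myoglobin and 19.1% with vehicle, beside 25.3% and 20% at the other promoter peaks.

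**Figure D4:**
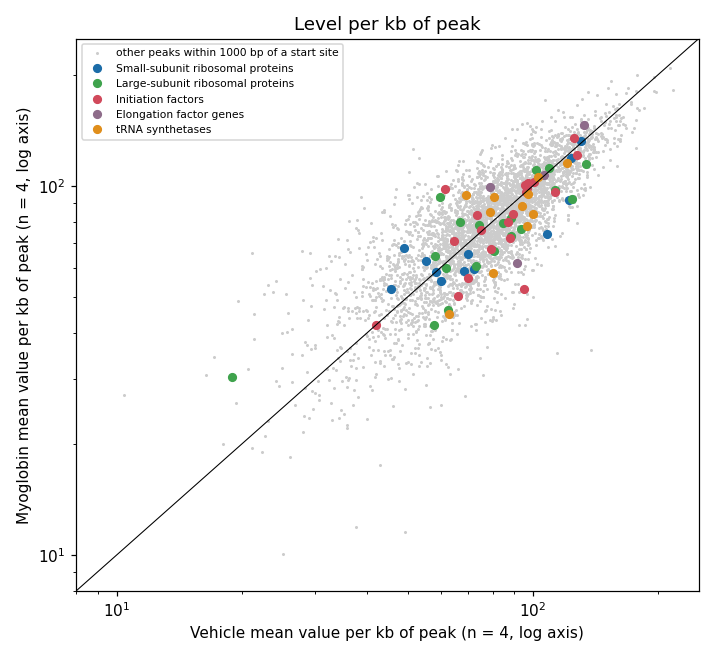
The mean value per kb of peak width is plotted for myoglobin (vertical, log axis) against vehicle (horizontal, log axis), n = 4 libraries each, with the 66 peaks coloured by class over the other promoter peaks in grey. The 66 peaks lie within the grey cloud, from 18.9 per kb in vehicle libraries at Rpl5 to 134 per kb at Rpl27.

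The peaks were narrow and close to the start. Their median width was 216 bp (99 to 590 bp), beside 223 bp for other promoter peaks, and their centres lay a median of 72 bp from the start, beside 88 bp. The peak covered the listed start at 47 of 66 promoters (71.2%), beside 62.8% of other promoter peaks. By class this held for 11 of 12 small-subunit, 12 of 19 large-subunit, 14 of 20 initiation factor, 4 of 4 elongation factor and 6 of 11 synthetase peaks. The differences between these shares were not tested.

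Some distances depended on which start was listed. The peaks farthest inside the 1000 bp limit were Aars1 at 661 bp and Eif5a at 435 bp, and the first beyond it was a second Eif4a1 peak at 1041 bp, with 8.50 ± 1.73 with myoglobin and 8.50 ± 1.29 with vehicle (SD, n = 4 each). RefSeq has a start inside the Aars1 peak, 698 bp downstream of the listed one, and another inside the Eif5a peak, 572 bp downstream. Of the 54 members with RefSeq starts, 14 had their listed start outside the peak, and 4 of these had a RefSeq start within it. A start on the opposite strand lay within 500 bp at 9 of the 66 promoters (13.6%), beside 19.5% of other promoter peaks.

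**Figure D5:**
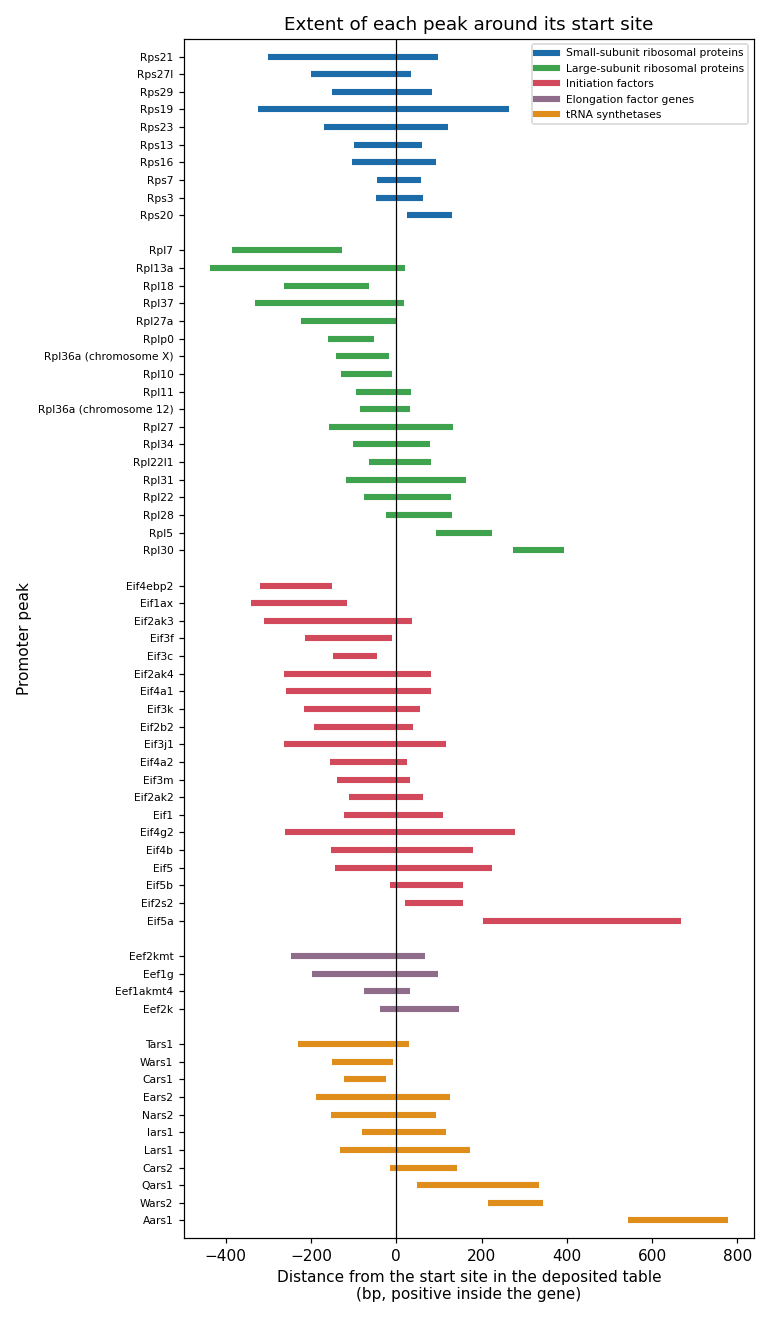
Each line spans 1 of 63 of the 66 promoter peaks relative to its start in the deposited table, in bp, positive inside the gene, coloured by class. Most lines cross 0 (44 of 63), and the Aars1 and Eif5a peaks lie farthest inside the gene, with centres at 661 and 435 bp.

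The set was unevenly spread over the genome. Chromosome 7 held 18 of the 66 peaks (27.3%), beside 7.94% of the 4096 other promoter peaks. RefSeq lists 195 protein-coding genes whose symbols match these names, and 24 of them (12.3%) lie on chromosome 7. Of these 24, 18 (75%) had a peak in the set, beside 48 of 171 (28.1%) on the other chromosomes. The small subunit contributed 6 of its 12 peaks, among them Rps13, Rps16 and Rps19, and the large subunit 4 of 19. The size of this difference was not tested.

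The motif search read both strands of the 53 windows, compared with 3026 windows of other open promoters and all 32817 windows in the table. The ETS core CCGGAAG was in 24.5% of member windows, beside 19.6% of other open promoters and 8.86% of all windows. The E-box CACGTG was in 20.8%, beside 10.2% and 7.15%. By class, 0 of 8 small-subunit, 2 of 15 large-subunit and 3 of 19 initiation factor windows held the E-box. It was also in 2 of 3 elongation factor and 4 of 8 synthetase windows. The CARE TGATGNAA was in 5.66%, beside 1.49% and 3.97%, and its 3 windows were those of Aars1, Iars1 and Tars1 printed above. Each match is a run of letters and not a shown binding site.

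A TOP start was read on the gene's strand in 28.3% of member windows, beside 19.0% of other open promoters and 18.3% of all windows. It was in 3 of 8 small-subunit, 6 of 15 large-subunit, 4 of 19 initiation factor and 2 of 8 synthetase windows. The reading used a single RefSeq start, so a window without such a run does not place its gene outside the TOP class. The SP/KLF motif GGGCGG was in 73.6%, beside 77.5% and 35.6%, and NFY CCAAT in 43.4%, beside 49.6% and 37.4%. YY1 AAGATGGC was in 7.55%, beside 4.59% and 2.74%, and TATAAA in 7.55%, beside 3.97% and 13.6%. NRF1 GCGCATGC was in 5.66%, beside 6.58% and 2.71%, and the CRE TGACGTCA in 1.89%, beside 3.97% and 1.79%. The shorter TGACG, which the full CRE contains, was in 43.4%, beside 36.5% and 20.8%. Median GC content was 60.3% in the member windows, 63.7% in other open promoters and 52.7% in all windows.

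The log2 differences were also grouped by motif, as a description with no test. Promoters with a TOP start read at that RefSeq start had a median of -0.08 (n = 15), and those where none was read -0.04 (n = 38). The medians were -0.05 with the ETS core (n = 13) and -0.09 without it (n = 40). They were -0.31 with the CARE (n = 3) and -0.06 without it (n = 50). The 3 values with the CARE are those given for Aars1, Tars1 and Iars1. NRF1 had -0.35 (n = 3) and -0.06 (n = 50), with the motif before without it. In that order YY1 had -0.17 (n = 4) and -0.05 (n = 49), and TATAAA -0.14 (n = 4) and -0.05 (n = 49). TGACG had -0.13 (n = 23) and -0.02 (n = 30), and CACGTG -0.13 (n = 11) and -0.06 (n = 42). NFY had -0.08 (n = 23) and -0.02 (n = 30), and SP/KLF -0.08 (n = 39) and -0.07 (n = 14). The median vehicle level was 84.8 per kb with the ETS core and 84.6 per kb without it.

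Lists of other genes of the same pathways, counted without the 66 peaks, gave 0 calls higher and 0 lower in each list by limma. Across all peaks 0.202% were called higher and 0.0467% lower, and lists this small would rarely hold a call at those shares. Of 115 ribosome assembly genes, 29 had a promoter peak, with a median difference of -0.16 (13 positive, 16 negative). Riok3, a kinase of 40S maturation, had 9, 14, 11 and 5 with myoglobin, against 14, 17, 13 and 20 with vehicle, and a difference of -0.72 ± 0.30 (adjusted p = 0.575). Nob1, the nuclease that finishes 18S rRNA, had 9, 24, 15 and 14 with myoglobin, against 13, 8, 7 and 8 with vehicle, and a difference of 0.68 ± 0.31 (adjusted p = 0.606).

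In the integrated stress response list, 12 of 28 genes had a promoter peak, 13 peaks in all, with a median of -0.05 (5 positive, 8 negative). Ppp1r15b, the constitutive partner of the phosphatase that reverses eIF2 phosphorylation, had 40, 44, 37 and 47 with myoglobin, against 28, 32, 30 and 37 with vehicle. The groups touched only at 37. The difference was 0.39 ± 0.17 (unadjusted limma p of 0.0252, adjusted p = 0.589). Dnajc3, an endoplasmic reticulum chaperone also described as an inhibitor of eIF2 kinases, had a difference of -0.35 ± 0.22 (adjusted p = 0.740).

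In the mTORC1 list, 20 of 50 genes had a peak, 21 in all, with a median of 0.07 (14 positive, 7 negative). Sesn3, a sestrin that restrains mTORC1, had 17, 17, 15 and 13 with myoglobin, against 22, 19, 20 and 23 with vehicle. These groups did not overlap, as at 1.59% of all peaks in the same direction. The difference of -0.42 ± 0.24 had an adjusted p of 0.710. Sesn3 and Max are named because they had the 2 smallest limma p of the list. Max, the partner of Myc, had a difference of -0.40 ± 0.22 (adjusted p = 0.684).

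The remaining lists had medians close to 0. Termination and ribosome rescue genes had a peak at 16 of 36 (median 0.06), with Ascc2 at -0.75 ± 0.39 and Denr at 0.46 ± 0.25 (adjusted p = 0.666 and 0.684). Poly(A)-binding and scanning helpers had 15 peaks at 14 of 30 genes (median 0.04), with Fxr1 at -0.55 ± 0.37 (adjusted p = 0.758). Of 75 tRNA maturation and charging genes, 15 had a promoter peak outside the set (median 0.06). The 75 include Ears2, whose peak is in the set and was not counted here. Ctu1 was at -0.68 ± 0.32 and Polr3k at 0.35 ± 0.22 (adjusted p = 0.62 and 0.741). Other TOP genes and snoRNA hosts had a peak at 6 of 28 (median 0.02), with Rpsa, the 40S protein outside the Rps numbering, at 0.63 ± 0.36 and Tpt1 at 0.08 ± 0.16 (adjusted p = 0.698 and 0.947).

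The cell type labels could be checked only in part. Of 17 genes listed as proximal tubule markers, Cryl1 and Cdh16 had a promoter peak, and Cdh16 is not specific to that segment. Defining markers such as Lrp2, Slc34a1 and Hnf4a had no peak. The mean values were 17.75 with myoglobin and 19.5 with vehicle at Cryl1, and 37.25 and 36.5 at Cdh16. The 2 peaks had a summed value of 45 to 67 in myoglobin libraries and 50 to 62 in vehicle libraries. Of 17 markers of the loop, distal tubule and collecting duct, Scnn1g had one, with 19 to 24 and 13 to 23. The 12 endothelial, 12 fibroblast, 12 immune and 8 podocyte markers had none. Their part in the values above was not tested.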

How the data were processed

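The authors deposited 1 table of 6425 peaks with 8 library columns in mm10 coordinates. Per the submitters' processing notes, the tools included DESeq2 1.36.0, featureCounts, Picard 3.0.0, STAR 2.7.10a and Trimmomatic 0.39. The sources used here give neither their roles nor the peak caller, duplicate handling or any Tn5 shift. The deposited values were treated as a score: whole numbers with near-equal totals (124415 to 126782) that skip numbers at regular steps, as scaled and rounded reads do. Scaling factors, estimated by maximum likelihood from those steps, gave the reads per library. Since the values are not counts, no count model was used.

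The fit was limma 3.58.1 (R 4.3.3) on log2(value + 1), treatment as the only term, variance trend, no filter, over all peaks (prior degrees of freedom 78.5, residual 6); it was tested on simulated data. Single peaks also had exact two-sided permutation tests. All 66 peaks matched a RefSeq gene, 8 by synonym. Python 3.11.15 was used for the rest.

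The members and lists were chosen with earlier results of these data known. Named peaks (37 of 66) were, in each class, the 2 with the most and the 2 with the least value per kb and the 3 with the smallest p, a list of core factors, and genes with 2 peaks; of the other lists, the 2 smallest p. Some peaks that this rule names are not reported here. Alternatives were other scalings, pseudocounts of 0.1 and 5, a mean of at least 10, a replicate block, robust variance, library weights, members within 500 bp, symbols of pseudogenes left out, and leaving out libraries.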

Additional observations from a re-analysis of the deposited data

Results flagged for a closer look

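Among 74 sets of 4 libraries at the named peaks, 3 held a library whose gap to the nearest of the others, divided by the whole range, was above Dixon's 95% critical value for 4 samples. Chance gives about 3.7 such sets. At Eif4a1, myoglobin replicate 2 had a value of 64, where the other myoglobin libraries had 33 to 34 (ratio 0.968). At Eif2ak3, myoglobin replicate 4 had 14, where the other myoglobin libraries had 21 to 22 (ratio 0.875). At Rps29, vehicle replicate 3 had 44, where the other vehicle libraries had 26 to 27 (ratio 0.944). Myoglobin replicate 3 also had the highest myoglobin value at Rps29, 43.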

How the results depend on the processing

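No alternative called any of the 66 peaks, and the smallest adjusted p over all of them was 0.209 (without myoglobin replicate 3). The median difference ran from -0.137 to -0.0545 when 1 library was left out. Under the other alternatives it ran from -0.112 (mean of at least 10, 54 of 66 peaks tested) to -0.0573 (pseudocount of 5). With the replicate number as a block, 0 peaks of the set were called, the smallest adjusted p was 0.626, and 10 of all peaks were called in place of 16. Same-numbered libraries had correlations of deviations from their group means of -0.0132 to 0.0258, and not every library correlated best with its own number, so the numbers were not treated as pairs. Over all peaks the calls were 9 and 21 with pseudocounts of 0.1 and 5, and 22 with library weights.

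Of 659 values of the 37 named peaks, 619 kept their sign and 40 reversed, at 17 peaks whose reported differences were at most 0.43 in size; the cause was not tested. With the 2 shallowest libraries left out, the reversed values were -0.052 at Eef1akmt4, -0.10 at Eef2kmt, 0.0244 at Eif2ak2, 0.0122 at Eif3k, -0.33 at Rps23 and 0.29 at Iars1. With library weights they were -0.0008 at Rps23 and 0.0072 at Iars1. Leaving out 1 library gave -0.0799 to 0.11 at Eef1g, -0.23 to 0.0787 at Eif2ak2, -0.0026 to 0.17 at Eif2ak4, -0.36 to 0.22 at Eif2s2, -0.11 to 0.24 at Eif4ebp2, -0.0535 to 0.12 at Eif5a and -0.17 to 0.21 at Iars1. It gave -0.0173 to 0.26 at Rpl36a (chromosome 12), -0.13 to 0.18 at Rpl37, -0.20 to 0.13 at Rplp0, -0.14 to 0.0311 at Rps21, -0.08 to 0.37 at Rps23, -0.16 to 0.20 at Rps29 and -0.19 to 0.0321 at Wars1.

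Depth limits these peaks: the median member value stood on an estimated 12.9 reads in myoglobin libraries and 24.3 in vehicle libraries.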
